A study of Arabidopsis thaliana with 44 samples.

Results

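A set of 117 Arabidopsis thaliana genes was higher in every RNA library of 3 chromatin mutants than in every wild-type library. The genes were selected on the RNA counts themselves, as CPM (the count of a gene scaled to a library total of 1e6 reads on nuclear genes). A gene was taken when its wild-type (WT) mean CPM was at least 1, all 9 mutant libraries (pkl-1, clf-28 or pie1-5) lay above all 3 WT libraries, and each mutant's mean CPM was at least 1.5 times the WT mean. Of 32909 nuclear genes in the count table, 17629 reached the WT minimum, 197 of these had every mutant library above every WT library, and 117 met the whole rule. Because these values chose the genes, the differences from WT in RNA are given below as a description, and nothing is read from tests of them.

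The plants were 3 weeks old, grown on soil with 16 h of light a day, after 3 days of stratification for every sample. Shoots were collected from WT plants and from single mutants of PICKLE (allele pkl-1), CURLY LEAF (allele clf-28) and PHOTOPERIOD-INDEPENDENT EARLY FLOWERING 1 (allele pie1-5). Each genotype had 3 RNA libraries, and chromatin immunoprecipitation (ChIP) for the histone mark H3K27me3 and the histone variant H2A.Z had 2 libraries per genotype. Each mutant is represented by 1 allele, and whole shoots mix many cell types, so that more cells of a type and more RNA per cell cannot be told apart. The submitters call the replicates independent and biological, without saying which plants or plantings each came from.

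CURLY LEAF is a Polycomb methyltransferase that places H3K27me3, a mark of repressed genes. PICKLE is a chromatin remodelling ATPase that promotes H3K27me3 at many loci in seedlings, and PIE1 is the ATPase of the SWR1 complex, which puts H2A.Z into nucleosomes. In Arabidopsis, H2A.Z lies at the start of many genes and across the bodies of genes that are weakly expressed or respond to the environment, where it often occurs together with H3K27me3.

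The RNA libraries held between 12.96 and 20.03 M reads on nuclear genes (M, 1e6). The count of the targeted gene followed the label in 1 mutant: PIE1 was at 6.47 to 10.9 CPM in the pie1-5 libraries and 11.4 to 15.7 in WT. PKL was at 38.3 to 59.8 CPM in pkl-1 against 25.1 to 29.8 in WT, and CLF was at 35.4 to 76.3 CPM in the libraries labelled clf-28 against 4.26 to 9.93 in WT; a count over the whole gene does not show whether an intact transcript was made. The 3 shoot markers summed to between 8277 and 13934 CPM in every library. The 5 root markers summed to 38.0 to 59.1 CPM in WT, 69.2 to 89.7 in pkl-1, 49.6 to 95.6 in clf-28 and 97.4 to 133.7 in pie1-5. PYK10, a beta-glucosidase, made up nearly all of this sum. EXPA7 was at 0 in all libraries and the root hair gene RHD6 was at 0 in all 9 mutant libraries. CASP1 was at 0 to 0.44 CPM in WT, 0 to 0.25 in pkl-1, 0.18 to 1.16 in clf-28 and 0.22 to 0.79 in pie1-5. SHV2 was at 0.12 CPM or less in every library. Anther and pollen markers, 3 in number, summed to 1.20 to 2.66 CPM in WT and 0.78 to 2.35 in pkl-1. They summed to 1.75 to 2.74 CPM in clf-28 and 0.70 to 8.77 in pie1-5. The part of these changes in the results was not tested.

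The first pie1-5 library stood apart from the other 2. Its 13 evening clock genes summed to 63.9 CPM, below the WT range of 77.8 to 80.2, whereas the highest pie1-5 library reached 294.9, and its 14 morning clock genes summed to 742.3 CPM against 316.2 to 337.8 in WT and a lowest pie1-5 value of 131.7. The sources used here give no hour of collection, and its part in the results was not tested. Without this library 113 of the 117 genes still met the rule, the median pie1-5 ratio was 2.30 in place of 2.28, and a further 129 genes met it. Of the 117 genes, 8 were at least 2 times the mean of the other pie1-5 libraries in this library and 11 were at 0.5 times or less.

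The 117 genes were mostly weakly expressed in WT. Their median WT mean was 3.79 CPM, against 9.69 over all genes that reached 1 CPM, and 71 of them (60.7%) lay under 5 CPM, against 30.5% of all such genes. The fewest reads behind any of them were 50 over the 3 WT libraries. All but 2 were protein-coding: AT5G07325 is a long noncoding RNA and AT3G59765 another noncoding RNA in RefSeq. They lay on all 5 chromosomes, with 28, 12, 23, 20 and 34 genes on chromosomes 1 to 5; chromosome 2 held 10.3% of them against 15.5% of all genes at 1 CPM or more, and chromosome 5 held 29.1% against 23.1%.

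The increases were mostly moderate, and the order of the mutants depended on the scaling. The median ratio to WT was 1.95 in pkl-1, 2.10 in clf-28 and 2.28 in pie1-5, and the highest was 4.95, 5.89 and 37.4. With the trimmed-mean (TMM) scaling factors of edgeR the medians were 2.10, 1.91 and 2.11, which puts clf-28 below pkl-1. Of the 117 genes, 41 were at 2 times WT or more in all mutants, while the median of the smallest ratio was 1.82. The mutant with the highest ratio was pie1-5 for 57 genes, clf-28 for 40 and pkl-1 for 20, and with TMM factors pie1-5 for 50, clf-28 for 23 and pkl-1 for 44. In 37 genes the lowest mutant library was less than 1.1 times the highest WT library, and in 7 it was at least 1.5 times. Library 3 of clf-28 was the highest of its genotype for 90 of the 117 genes, and library 3 of WT the lowest of WT for 55. The part of these libraries in the selection was not tested. With the TMM factors, which were 1.32 for that clf-28 library and 0.788 for the first pkl-1 library, 112 genes met the rule and 88 of the 117 were among them; all 117 kept a mean above WT in each mutant, the lowest ratio being 1.36.

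**Figure D1:**
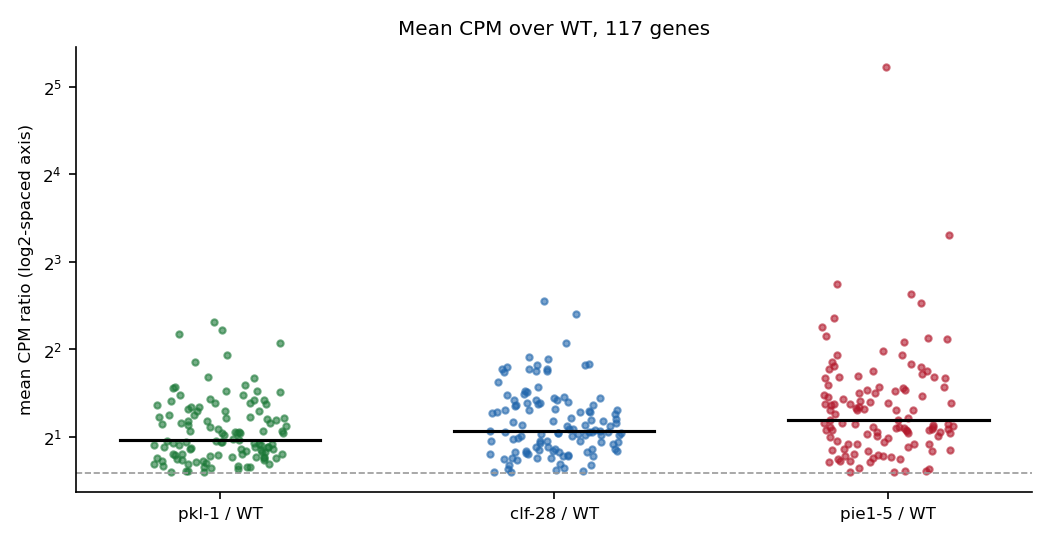
Mean CPM of each mutant over the WT mean for the 117 genes, on a log2-spaced axis; each point is a gene, the black bar the median and the dashed line the limit of 1.5 used to choose them. Most points lie between 1.5 and 4, and the 1 point above 32 is LSU2 in pie1-5, at 37.4.

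In edgeR's quasi-likelihood test over 20136 genes, with Benjamini-Hochberg adjusted p below 0.05, 60, 37 and 74 of the 117 were higher in pkl-1, clf-28 and pie1-5 than in WT. Among all genes tested, 1.49%, 0.949% and 3.89% were called higher. The rule used these contrasts, so nothing is read from the counts. In the authors' deposited table all 117 had a positive log2 fold change in each mutant, and 75, 46 and 86 were higher at an adjusted p below 0.05. Of the 18489 genes in it, 488, 304 and 1064 were higher. That table covers the same RNA comparisons as the rule, so nothing is read from it either.

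Of the 117 genes, 2 are in a list of 13 genes of the evening part of the circadian clock. GIGANTEA (GI), which links the clock to photoperiodic flowering, was at 9.34, 7.17 and 7.90 CPM in the WT libraries. It was at 19.4, 22.6 and 27.6 CPM in pkl-1, at 26.8, 27.7 and 48.0 in clf-28 and at 12.1, 28.3 and 37.8 in pie1-5. All mutant libraries lay above WT, the lowest of them being the first pie1-5 library; the ratios were 2.85, 4.20 and 3.21, and 4.06 for pie1-5 without that library.

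PCL1, also known as LUX, is a MYB-like transcription factor of the evening complex. Its WT libraries were at 11.8, 9.98 and 9.75 CPM. The pkl-1 libraries were at 32.0, 35.4 and 34.4 CPM, the clf-28 libraries at 27.6, 30.7 and 47.8, and the pie1-5 libraries at 18.4, 32.8 and 32.1. Here too all mutant libraries lay above WT and the first pie1-5 library was the lowest of them, at 1.56 times the highest WT library. The counting does not separate it from AT3G46650, which overlaps it.

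The other evening genes showed how the clock list as a whole behaved, in a list of 13 chosen with earlier results of these data known. Of the 11 that are not among the 117, 5 were higher in pkl-1, 6 in clf-28 and 4 in pie1-5 than in WT by edgeR's adjusted p, and none was lower. Among all genes tested, 1.49%, 0.949% and 3.89% were called higher. The median log2 fold change of these 11 was 2.32, 2.33 and 2.23, against 0.00, 0.00 and 0.01 over all genes tested. The 3 comparisons share the WT libraries. FKF1, a blue-light-sensing F-box protein, was at 0.13 to 0.96 CPM in WT and at 9.39 to 17.8 in pkl-1, 17.0 to 31.9 in clf-28 and 18.6 to 22.8 in pie1-5 libraries 2 and 3, but at 0.43 in the first. COR27, a cold-regulated clock repressor, and AT4G33980 had log2 fold changes of 5.65 and 4.52 in pkl-1, 5.58 and 4.73 in clf-28 and 6.39 and 3.47 in pie1-5, all called by edgeR's adjusted p. The COR27 call in pkl-1 was lost without any 1 WT library or pkl-1 3 (adjusted p up to 0.0956), and that in clf-28 without any 1 WT or clf-28 library (adjusted p up to 0.135). The AT4G33980 call was lost in clf-28 without WT 3 (adjusted p = 0.0533, edgeR), and in pie1-5 without WT 1, WT 3, pie1-5 2 or pie1-5 3 and in a fit of the 2 groups (adjusted p up to 0.141). The FKF1 call in pie1-5 was lost in a fit of the 2 groups (adjusted p = 0.0671, edgeR). In the first pie1-5 library COR27 had no read and AT4G33980 was at 0.16 CPM. GI and PCL1 were above WT in that library, as the rule required.

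The morning clock genes, 14 in number and none of them among the 117, had median log2 fold changes of -0.94 in pkl-1, -0.99 in clf-28 and -0.07 in pie1-5. None was called in pkl-1 or clf-28, and EPR1, a MYB-like factor of the REVEILLE group, was lower in pie1-5 at a log2 fold change of -0.89 (adjusted p = 0.0269, edgeR), a call lost without WT 1, WT 2, pie1-5 2 or pie1-5 3 and in a fit of the 2 groups (adjusted p up to 0.144); 2.65%, 1.25% and 3.59% of all genes were called lower in the 3 mutants. CCA1, a central morning MYB-like factor shown for its known role after its values were seen, was at 8.08 to 11.3 CPM in WT, at 1.52 to 4.95 over pkl-1 and clf-28, and at 76.4, 2.54 and 2.62 in the pie1-5 libraries. Its high library is the one in which the evening genes were low.

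**Figure D2:**
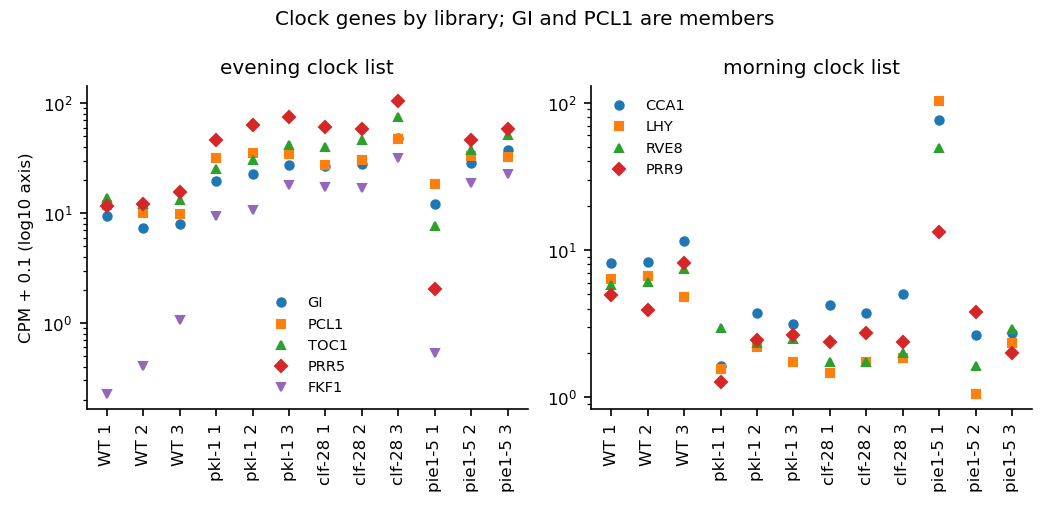
CPM plus 0.1, on a log10 axis, of 5 evening and 4 morning clock genes in each of the 12 RNA libraries; TOC1, PRR5, CCA1, LHY, RVE8 and PRR9 were chosen after their values were seen. GI and PCL1 lie above WT in every mutant library, while TOC1, PRR5 and, most widely, FKF1 drop in the first pie1-5 library, where CCA1, LHY, RVE8 and PRR9 peak.

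3 of the 117 belong to a list of 14 genes of sulfur deficiency and assimilation, and they moved by different amounts. SULTR4;2, a transporter that releases sulfate from the vacuole, was at 4.04, 6.09 and 2.68 CPM in WT. It was at 7.41, 12.9 and 14.3 CPM in pkl-1, at 14.7, 13.2 and 17.2 in clf-28 and at 17.4, 8.19 and 15.4 in pie1-5. The 3 mutants overlap in this gene, with ratios of 2.70, 3.53 and 3.20; 3 annotated genes overlap it.

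LSU2, a small protein induced by low sulfur, was at 4.16, 4.66 and 1.92 CPM in WT. It was at 9.51, 7.74 and 7.13 CPM in pkl-1, at 4.97, 6.02 and 5.31 in clf-28 and at 306.8, 41.7 and 53.4 in pie1-5. The clf-28 libraries lie just above the highest WT library, and the gene failed the rule with TMM factors (smallest ratio 1.40), with totals over all genes and without WT 3 or clf-28 2. The first clf-28 library was 1.07 times the highest WT library, and the pie1-5 libraries lie apart from all others; the pie1-5 ratio of 37.4 was 13.3 without the first pie1-5 library. SHM7, a serine hydroxymethyltransferase family member, was at 27.1, 22.5 and 31.8 CPM in WT, 33.3, 44.7 and 55.6 in pkl-1, 46.3, 43.2 and 50.6 in clf-28 and 216.1, 69.6 and 104.9 in pie1-5. Its first pie1-5 library was again the highest, and the pie1-5 ratio was 4.80 with that library and 3.21 without it.

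Of the 10 tested genes of that list that are not among the 117, none was called in pkl-1 or clf-28 (median log2 fold changes 0.41 and 0.15), and 7 were higher in pie1-5 (median 2.89). Over all genes tested, 1.49%, 0.949% and 3.89% were called higher in pkl-1, clf-28 and pie1-5, and the medians were 0.00, 0.00 and 0.01. LSU3, a relative of LSU2, rose in pie1-5 by a log2 fold change of 5.00 ± 0.54 (SE, adjusted p = 0.000107, edgeR), and LSU1 rose by 4.44 ± 0.50 (SE, adjusted p = 0.000158, edgeR). ATSDI1, a tetratricopeptide protein induced by sulfur deficiency, was at 1.01 to 1.65 CPM in WT, at 0.32 to 3.16 over pkl-1 and clf-28, and at 173.2, 24.8 and 41.7 in pie1-5. In this list the high values of the first pie1-5 library stand beside those of its morning clock genes, and their cause was not tested. The pie1-5 calls of ATSDI1, LSU1, LSU3, APR1, APR3 and AT5G26220 were kept in all 17 alternatives, leaving out that library among them. The APR2 call was lost only in a fit of the 2 groups (adjusted p = 0.0588, edgeR).

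1 of the 117 belongs to a list of 15 genes of flavonoids and anthocyanins. TT5, chalcone isomerase, was at 5.49, 3.64 and 6.39 CPM in WT, 7.23, 8.84 and 8.95 in pkl-1, 8.92, 8.80 and 6.50 in clf-28 and 62.6, 12.4 and 14.9 in pie1-5. Its clf-28 library 3 was 1.02 times the highest WT library, and the gene met the rule neither with TMM factors nor with totals that include organelle genes. Of the 12 other tested genes of that list, 2 were higher in pkl-1, 0 in clf-28 and 5 in pie1-5, against 1.49%, 0.949% and 3.89% of all genes. Each of these calls was lost in at least 2 alternatives. F3H, flavanone 3-hydroxylase, was at 122.5 CPM in the first pie1-5 library and at 12.3 and 9.49 in the others, against 5.36 to 12.03 in WT; it is named after its values were seen. TT4, chalcone synthase, rose in pie1-5 by a log2 fold change of 1.63 ± 0.36 (SE, adjusted p = 0.0132, edgeR), at 317.8, 98.0 and 124.8 CPM against 41.6 to 75.4 in WT; the call was lost without WT 1 or WT 3 and in a fit of the 2 groups (adjusted p up to 0.0787). No gene of the lists for photoperiodic flowering, light signalling, cold response, aliphatic glucosinolates, lipid transfer and wax, starch breakdown, phosphate starvation or floral Polycomb targets was among the 117.

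HCAR, 7-hydroxymethyl chlorophyll a reductase of the chlorophyll cycle, was at 7.82, 8.70 and 7.90 CPM in WT. It was at 20.5, 24.4 and 26.9 CPM in pkl-1, at 29.0, 25.1 and 36.6 in clf-28 and at 23.9, 30.1 and 33.4 in pie1-5. HCAR is 1 of the 7 genes in which the lowest mutant library was at least 1.5 times the highest WT library, and it met the rule under every left-out library and both other scalings.

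CHL, the chloroplastic lipocalin, was at 9.34 to 11.2 CPM in WT, 19.7 to 29.9 in pkl-1, 30.9 to 45.1 in clf-28 and 14.6 to 31.9 in pie1-5. OEP6, a protein of the chloroplast outer envelope, was at 162, 135 and 116 CPM in WT, 317 to 334 in pkl-1, 333 to 381 in clf-28 and 218 to 324 in pie1-5. CP29, a chloroplast RNA-binding protein and the most abundant of the 117 in WT, was at 539, 666 and 497 CPM in WT and at 834 to 1022 in pkl-1, 862 to 1107 in clf-28 and 691 to 1171 in pie1-5. For CP29 the lowest mutant library was 1.04 times the highest WT library, and the gene met the rule neither with TMM factors nor with totals over all genes. THIC, the plastid enzyme that makes the pyrimidine part of thiamine, was at 87.7, 103.5 and 71.5 CPM in WT, 178.6 to 243.5 in pkl-1, 254.8 to 381.6 in clf-28 and 163.2 to 297.1 in pie1-5; AT2G29628 overlaps it.

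EARLI1 and AZI1 are neighbours on chromosome 4 and encode proline-rich lipid-transfer-type proteins, AZI1 being known for priming systemic immunity. EARLI1 was at 7.38, 11.2 and 5.84 CPM in WT, 37.5, 12.8 and 27.7 in pkl-1, 23.3, 11.3 and 27.5 in clf-28 and 11.4, 16.9 and 33.0 in pie1-5. The lowest mutant library, the second of clf-28, was 1.01 times the highest WT library, and EARLI1 failed the rule with TMM factors and with totals over all genes. AZI1 was at 25.6, 19.5 and 12.8 CPM in WT, 38.3 to 52.1 in pkl-1, 44.8 to 65.8 in clf-28 and 47.3 to 81.3 in pie1-5.

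GER3, a germin-like protein of the cell wall, was at 142, 151 and 116 CPM in WT, 197 to 283 in pkl-1, 357 to 453 in clf-28 and 235 to 459 in pie1-5. AGP17, an arabinogalactan protein, was at 82.3, 92.5 and 74.0 CPM in WT, 239, 252 and 202 in pkl-1, 165, 187 and 167 in clf-28 and 127, 141 and 155 in pie1-5; its 4 genotypes did not overlap. MT2A, a metallothionein, was at 49.0, 48.7 and 47.3 CPM in WT and at 105 to 144 in pkl-1, 119 to 159 in clf-28 and 51.5 to 168.4 in pie1-5. The first pie1-5 library of MT2A was 1.05 times the highest WT library, and the gene failed the rule with TMM factors and with totals over all genes.

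The other leading genes have no symbol in RefSeq or are members of large enzyme families. AT2G21130 had the largest smallest ratio, at 2.27, 1.23 and 1.37 CPM in WT, 6.65 to 8.95 in pkl-1, 8.18 to 11.5 in clf-28 and 3.396, 23.9 and 20.9 in pie1-5. AT5G25240 was at 11.2, 2.46 and 2.13 CPM in WT and at 15.7 to 32.9 over all mutant libraries, so that 1 WT library set its WT mean of 5.25 ± 5.13 CPM (SD, n = 3). CYP705A19, a cytochrome P450, was at 7.07 to 8.55 CPM in WT, 26.5 to 34.2 in pkl-1, 21.2 to 30.8 in clf-28 and 17.4 to 21.6 in pie1-5. AT4G12290, AT5G16980 and AT5G24155 had smallest ratios of 2.57, 2.72 and 2.67. AT2G21130, AT4G12290 and AT5G16980 failed the rule with totals over all genes, and AT5G16980 also without WT 2. The noncoding AT5G07325 was at 46.1 to 58.0 CPM in WT, and at 177, 83.5 and 102 in pkl-1, 72.8 to 91.5 in clf-28 and 70.4 to 113.4 in pie1-5. AT5G07325 failed the rule with TMM factors (smallest ratio 1.41) and without WT 1, clf-28 2 or pie1-5 2.

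**Figure D3:**
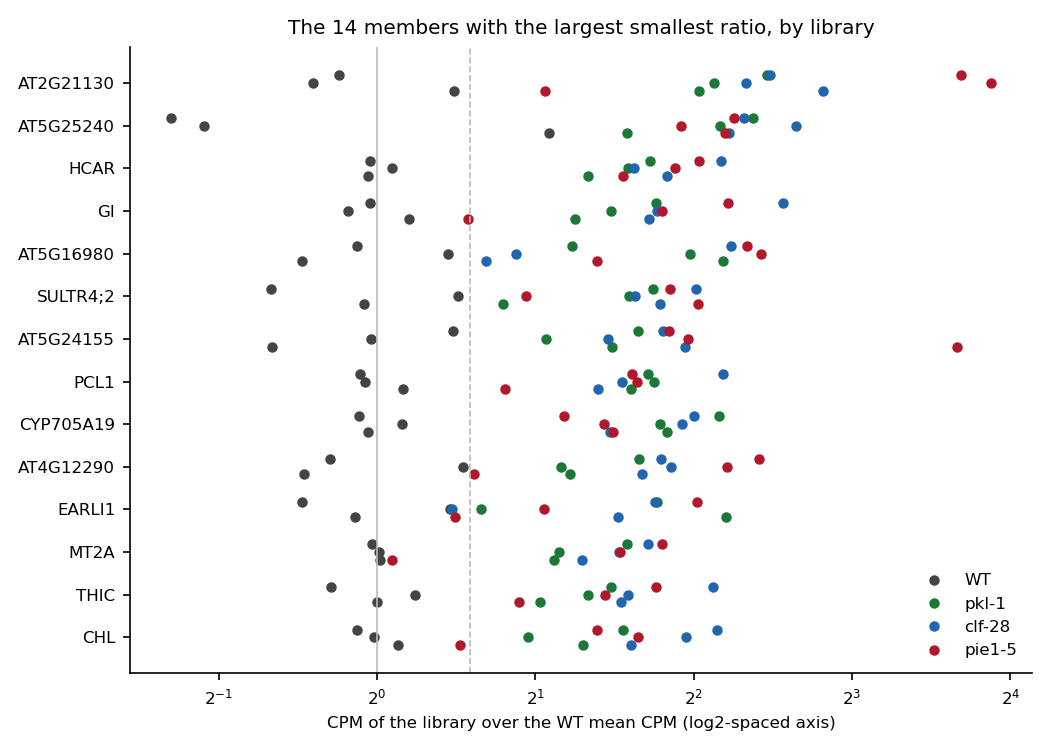
CPM of each library over the WT mean, on a log2-spaced axis, for the 14 genes with the largest smallest ratio; 1 point is 1 library, and the dashed line marks 1.5. HCAR and CYP705A19 keep all mutant libraries well to the right of WT, while for EARLI1 and MT2A single mutant libraries lie next to the highest WT library.

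Neighbouring genes and near-identical copies were among the 117. Besides AZI1 with EARLI1, the adjacent serine carboxypeptidase-like genes scpl10 and SCPL9 on chromosome 2 both met the rule, with ratios of 1.75, 1.69 and 2.83 for scpl10 and 2.12, 2.72 and 2.80 for SCPL9. AT5G50565 and AT5G50665 had identical counts in all 12 libraries and cannot be counted separately. AT5G50530 and AT5G50640, close to them on chromosome 5, had similar but not identical values, with smallest ratios of 2.01 and 2.07. In all, 18 of the 117 overlap some other gene of the count table, among them scpl10, GMI1, AT2G16365 and MES18, and their reads cannot be told apart because the libraries came from a DNA library kit that keeps no strand.

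The genes on either side of the limit of 1.5 did not separate. Just inside lay AT5G59130, AT5G45700 and BRK1, a subunit of the actin-regulating SCAR/WAVE complex, with smallest ratios of 1.513, 1.514 and 1.515. Just outside lay AT5G49645, PAP29 and AT1G23205, with smallest ratios of 1.499, 1.498 and 1.497.

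The comparison of the mutants with each other did not enter the rule except through the limits each mutant had to pass, and asked in which of the 117 the mutants differed. By edgeR's adjusted p, 1 of 117 differed between pkl-1 and clf-28, 7 between pkl-1 and pie1-5 and 7 between clf-28 and pie1-5. Among all genes tested, 2.86%, 11.2% and 8.8% did. Of the 117, 12, 15 and 19 had an unadjusted p below 0.05. The median size of the log2 difference was 0.26, 0.30 and 0.29 over the 117 and 0.31, 0.39 and 0.38 over all genes; since each of the 117 had to lie above WT in every mutant, the choice bears on these sizes.

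LSU2, SHM7 and TT5 were higher in pie1-5 than in both other mutants. LSU2 was 14.2-fold higher in pie1-5 than in pkl-1 (log2 difference -3.83 ± 0.61 for pkl-1 minus pie1-5, SE, adjusted p = 0.000691, edgeR) and 25.6-fold higher than in clf-28 (adjusted p = 0.000277, edgeR). Without the first pie1-5 library the log2 differences were -2.30 and -3.14 and remained called. SHM7 was 2.58-fold and 2.88-fold higher in pie1-5 (adjusted p = 0.00857 and 0.00566, edgeR); without that library the log2 differences fell from -1.37 to -0.75 and from -1.53 to -0.91, and both remained called. TT5 was 3.16-fold and 3.79-fold higher in pie1-5 (adjusted p = 0.0354 and 0.0214, edgeR), and without that library its log2 differences were -0.49 and -0.75 and no longer called (adjusted p = 0.326 and 0.122). TT5 against pkl-1 was not called either in the fit with a replicate block (adjusted p = 0.0673) or without any 1 pkl-1 library, and TT5 against clf-28 not without clf-28 library 1 or 3. Both TT5 calls were also lost in a fit of the 2 groups.

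GMI1 was higher in pkl-1 than in both other mutants. This structural-maintenance-of-chromosomes-like gene, induced by DNA damage, was at 1.89, 2.36 and 3.71 CPM in WT, 12.4, 14.7 and 12.3 in pkl-1, 6.44, 6.17 and 7.04 in clf-28 and 6.47, 5.44 and 6.61 in pie1-5. It was 2.39-fold higher in pkl-1 than in clf-28 (log2 difference 1.26 ± 0.27, SE, adjusted p = 0.0182, edgeR) and 2.47-fold higher than in pie1-5 (1.30 ± 0.27, SE, adjusted p = 0.00469, edgeR). The pkl-1 libraries overlap neither other mutant. The call against clf-28 was lost when the first or second pkl-1 library or clf-28 library 1 or 3 was left out, with adjusted p between 0.0664 and 0.0960.

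AGP17 was 1.91-fold higher in pkl-1 than in pie1-5 (adjusted p = 0.00613, edgeR), and CYP705A19 was 1.68-fold higher (adjusted p = 0.0243, edgeR). The CYP705A19 call was lost without pkl-1 library 1 or 3 or pie1-5 library 3 and in a fit of the 2 groups (adjusted p up to 0.0902). AT2G16365 was higher in pkl-1 than in pie1-5 by a log2 difference of 1.07 ± 0.22 (SE, adjusted p = 0.00487, edgeR) and higher in clf-28 by 0.77 ± 0.22 (SE, adjusted p = 0.0378, edgeR). Its clf-28 libraries were at 21.0, 19.7 and 46.5 CPM and its pie1-5 libraries at 13.9, 13.9 and 20.1, so that those overlap. The call against clf-28 was lost without clf-28 library 3 (log2 difference 0.46, adjusted p = 0.224, edgeR) and without any of WT 1, pkl-1 1, pie1-5 1 and pie1-5 2. A fit of the 2 groups lost it as well.

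The other 3 genes were lower in clf-28 than in pie1-5. AT4G39955 was at 5.82, 4.94 and 7.22 CPM in clf-28 and at 8.95, 17.7 and 13.4 in pie1-5 (log2 difference -1.22 ± 0.29, SE, adjusted p = 0.0166, edgeR). MBP1, a myrosinase-binding protein, was at 37.1, 37.9 and 38.5 CPM in clf-28, 39.9, 154 and 188 in pie1-5 and 130, 63.1 and 86.2 in pkl-1, against 24.5, 25.8 and 11.3 in WT (log2 difference of clf-28 minus pie1-5 -1.76 ± 0.44, SE, adjusted p = 0.0206, edgeR). MES18, a methyl esterase family member named like MBP1 after its values were seen, was at 11.3, 12.04 and 14.4 CPM in clf-28 and 34.4, 17.5 and 17.2 in pie1-5 (log2 difference -0.94 ± 0.28, SE, adjusted p = 0.0449, edgeR). Without the first pie1-5 library the difference was -1.44 for AT4G39955 and -2.18 for MBP1, and for MES18 it was -0.51 and no longer called (adjusted p = 0.196). Leaving out any 1 clf-28 library ended all 3 calls, as did leaving out pie1-5 2 for AT4G39955, pie1-5 2 or 3 for MBP1, and WT 2, WT 3, pkl-1 2 or pkl-1 3 for MES18. The MES18 call was also lost with a replicate block and in a fit of the 2 groups.

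**Figure D4:**
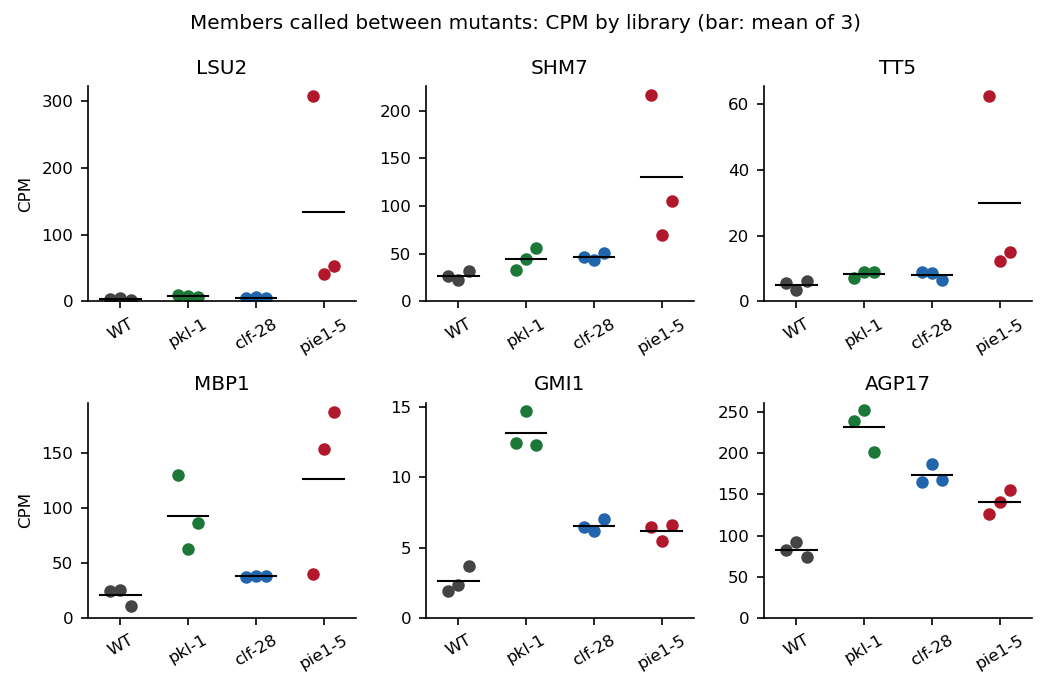
CPM in each library, with bars for the mean of 3, for 6 genes called between mutants; the CPM axes start at 0 and differ between panels. LSU2, SHM7 and TT5 are highest in pie1-5, mainly in its first library, GMI1 and AGP17 are highest in pkl-1, and MBP1 is low in clf-28.

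The ChIP data are a readout that the rule did not use. The authors' tables list enriched regions for each mutant and replicate beside WT; regions were matched between the 2 replicate tables, and a gene was assigned the region that covered most of it. H3K27me3 regions covered 28, 29 and 27 of the 117 genes in the tables of pkl-1, clf-28 and pie1-5, or 23.9%, 24.8% and 23.1%, against 11.6%, 12.03% and 11.4% of all genes at 1 CPM or more. By expression level, under 5 CPM the pkl-1 shares were 25.4% of 71 against 18.1% of 5375 genes, and from 5 to below 50 CPM 22.5% of 40 against 8.55% of 10281 genes. H2A.Z regions covered 76, 91 and 88 of the 117 (65.0%, 77.8% and 75.2%, against 44.0%, 62.7% and 61.7% of all such genes). Under 5 CPM the H2A.Z shares were closer, 70.4% against 57.7% in the pkl-1 tables, 80.3% against 75.4% in clf-28 and 77.5% against 75.01% in pie1-5. Of the 117, 20 lay in regions of both marks in all comparisons, and 17 lay in none.

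The H3K27me3 level over most of the covered genes was lower in pkl-1 than in WT. Of 28 genes, 16 were lower and 1 was higher by edgeR's adjusted p with library totals as the scale, and the median log2 change was -0.89. Among all 2047 covered genes at 1 CPM or more, 57.1% were called lower and 4.54% higher, so the share of the 117 that were lower, 16 of 28, was that of all covered genes. The 4.54% is 93 genes, while 12 of 5337 regions were called higher. Over all 5337 regions the median was -0.79, and when regions were scaled to each other by TMM the 117 had no lower call. The pkl-1 libraries had 40.0% and 36.2% of their reads in the regions, against 65.2% to 65.6% for WT; the part of this in the calls was not tested. A single WT library served all H3K27me3 tables, so the WT spread was not measured.

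AZI1 and EARLI1 lay in 1 H3K27me3 region of 26.2 kb at chr4:7397601-7423800 (TAIR10, as the authors' files give it). The region held 21.7 and 22.1 RPM per kb (reads per 1e6 library reads and kb of region) in the pkl-1 libraries and 42.8 in WT (log2 change -0.97 ± 0.13, SE, adjusted p = 1.35e-11, edgeR). In the clf-28 libraries it held 20.5 and 12.05, and in pie1-5, where it is up to 31.0 kb long, 32.2 and 33.9 against 37.8 and 42.8 for WT in the same tables; neither was called. With TMM over regions the pkl-1 change was -0.17 and was not called (adjusted p = 0.885).

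A pair of further regions, chosen after their values were seen, hold genes whose roles are well known. NIP5;1, a boric acid channel, lay in a region of 17.8 kb at chr4:6423201-6441000 with 16.6 and 17.2 RPM per kb in pkl-1 and 35.0 in WT (adjusted p = 1.08e-09, edgeR). KNAT6, a KNOX homeobox gene of the shoot meristem, lay in a region of 9.4 kb at chr1:8297401-8306800 with 23.8 and 18.3 in pkl-1, 24.7 and 7.77 in clf-28, 30.01 and 35.1 in pie1-5 and 42.9 in WT. KNAT6 RNA was at 1.64 to 2.82 CPM in WT, 3.50 to 4.37 in pkl-1, 3.70 to 7.85 in clf-28 and 4.54 to 6.28 in pie1-5. In both genes every mutant library held less H3K27me3 and more RNA than WT, as the scaling by library totals gives it. On that scale 92.1%, 82.7% and 82.5% of all covered genes had lower H3K27me3 in pkl-1, clf-28 and pie1-5. The RNA direction was fixed by the rule, which neither gene met with TMM factors. NIP5;1 also failed it with totals over all genes and without WT 1.

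AT2G07633 was the 1 gene called higher for H3K27me3. Its region of 250.4 kb at chr2:3259401-3509800 holds 88 genes at 1 CPM or more, and lies where the chromosome 2 sequence is known to contain a copy of mitochondrial DNA. It held 28.05 and 44.2 RPM per kb in pkl-1 against 11.9 in WT, and 23.4 and 23.8 in pie1-5 over nearly the same region; the call in pie1-5 was lost with TMM over regions (adjusted p = 1.00), and that in pkl-1 was then near the threshold (adjusted p = 0.0497). The value describes the region, not the gene.

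In clf-28 none of the 29 covered genes was called for H3K27me3 by edgeR, and 1 had an unadjusted p below 0.05; 0.0% of all covered genes were called. The median log2 change was -0.82, against -0.90 over all regions, and the second clf-28 library held 3.17 M reads in total. In pie1-5, AT2G07633 was the 1 gene called of 27, against 4.37% of all covered genes. That share is 88 genes, which are not separate results, since only 2 of 5180 regions were called. The median log2 change was -0.43 against -0.31 over regions.

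H2A.Z was not called changed over any of the covered genes in any mutant by edgeR. In pkl-1, clf-28 and pie1-5, 4 of 76, 10 of 91 and 13 of 88 had an unadjusted p below 0.05, and 0.0%, 0.0% and 0.358% of all covered genes were called. The median log2 change over the 117 was 0.02, -0.25 and -0.73, against 0.00, -0.27 and -0.73 over all regions. In pie1-5, 87 of 88 values were below 0 with library totals as the scale, as were 98.7% of all covered genes; with TMM over regions 45 of 88 and 50.5% of all were, and the median over the 117 was -0.01. The pie1-5 libraries differed: at GI the first held 4.87 and the second 10.3 RPM per kb, against 19.4 and 15.3 in WT (log2 change -1.18 ± 0.61, SE, adjusted p = 0.276, edgeR). At PCL1 they held 6.92 and 10.5, against 12.6 and 13.4 in WT. When the second pie1-5 library was left out all 88 were called lower, with the lone first library assumed to vary like WT, and 95.1% of all regions were called; when the first was left out none of the 88 was called.

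**Figure D5:**
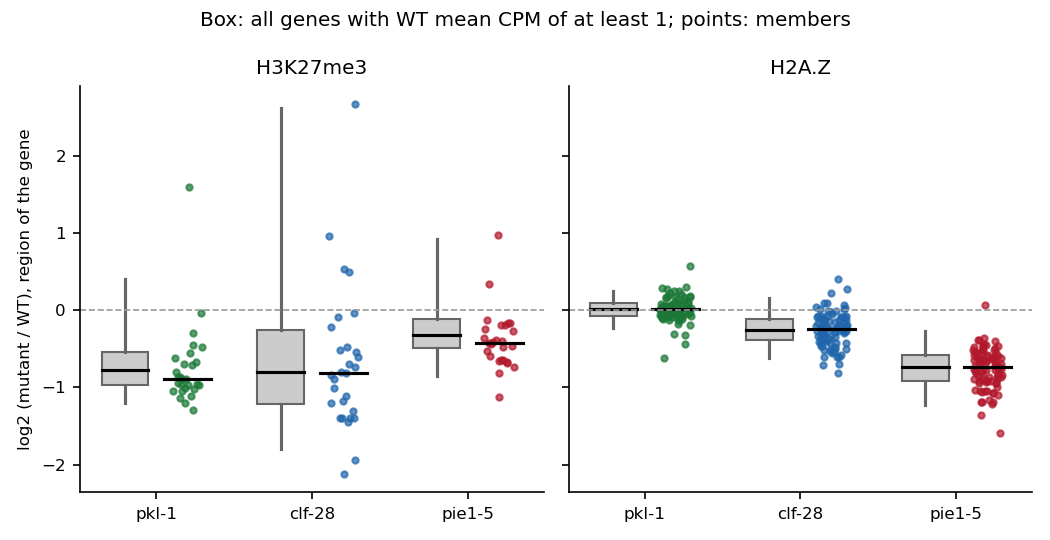
Log2 change of H3K27me3 and H2A.Z against WT in the region of a gene, with library totals as the scale. Grey boxes span the 25th to 75th percentile of all covered genes at 1 CPM or more, with lines to the 5th and 95th, and points are those of the 117 that were covered; black bars are medians. The points overlap the boxes in every panel; for H3K27me3 in pkl-1 the medians are -0.89 for the 117 and -0.78 for all covered genes, and for H2A.Z in pie1-5 -0.73 and -0.74.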

How the data were processed

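RNA counts per gene were deposited by the authors as whole reads without normalization. The submitters' processing notes name TAIR10 as the build and list Bowtie2, Trimmomatic, SICER, edgeR, deepTools and bedtools; roles, order, versions and the read counter are not stated there. The deposited edgeR table gives log2 fold changes and adjusted p-values by the authors. The deposited ChIP tables, per the file headers, list regions with read counts and RPM (reads per 1e6 library reads) of 1 mutant and 1 WT library each; their fold, p-value and FDR columns were not used.

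The rule for the 117 genes and the gene lists were chosen with earlier results of these data known. CPM used totals over nuclear genes. Tests used edgeR 4.0.16 (quasi-likelihood, TMM, low-count filter, 1 fit of 12 libraries, Benjamini-Hochberg over all genes) in R 4.3.3; DESeq2 1.42.0 was an alternative. Regions found in both replicate tables of a mutant (overlap of at least 50% of the shorter) were tested in edgeR with library totals, recovered from count and RPM, and region length as offset. A gene, placed by RefSeq's TAIR10.1 annotation, took the region that overlapped it most, by at least 200 bp of the gene and 200 bp on both sides. All H3K27me3 tables hold the same WT library total, so WT entered once. The 16 input and H3 libraries were not analysed here. Alternatives were RLE factors, no count filter, a replicate block, fits of 2 groups, each library left out, and TMM, overlap and read limits for regions. Scripts were tested on simulated data. Promoter motifs and sequences were not analysed here.

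Named genes were the 14 with the largest smallest ratio, the 6 highest in WT, list members, 3 on each side of 1.5, the 3 with the smallest adjusted p per mutant pair and per mark, adjacent members, and up to 3 other genes per list; exceptions are marked.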

Additional observations from a re-analysis of the deposited data

Results flagged for a closer look

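Of the 117 genes, 10 differed between mutants by edgeR's adjusted p, in 15 comparisons; each is the difference between 2 mutants' changes from the same WT. In pkl-1 minus clf-28 the log2 difference was 1.26 for GMI1. In pkl-1 minus pie1-5 it was 1.30 for GMI1, 1.07 for AT2G16365, 0.94 for AGP17, 0.75 for CYP705A19, -1.37 for SHM7, -1.66 for TT5 and -3.83 for LSU2. In clf-28 minus pie1-5 it was 0.77 for AT2G16365, -0.94 for MES18, -1.22 for AT4G39955, -1.53 for SHM7, -1.76 for MBP1, -1.92 for TT5 and -4.68 for LSU2. No separate check of single outlying values was run beyond leaving out each library in turn.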

How the results depend on the processing

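The rule gave 117 genes and 41 at a ratio of 2, 178 with no WT minimum, 112 with TMM factors and 85 with totals over all genes; leaving out 1 library gave 108 to 248, with 216 without WT 1, 248 without WT 2 and 242 without pie1-5 1. Called genes of the 117 numbered 1 in pkl-1 against clf-28, and 3 with DESeq2, 6 without a count filter, 3 in a fit of the 2 groups and 0 to 4 with a library left out (4 without pie1-5 1). Against pie1-5, pkl-1 had 7, 12 without a filter and 5 to 10 with a library left out, and clf-28 had 7, 4 in a fit of the 2 groups and 2 to 7 with a library left out. Across genotypes, correlations of deviations were -0.05 to 0.12 (median 0.02) for same-numbered replicates and -0.10 to 0.07 (median -0.01) for others. They cannot show whether same-numbered replicates shared a planting. With a replicate block the counts were 1, 6 and 6, and TT5 against pkl-1 and MES18 against clf-28 were lost. DESeq2 gave no adjusted p for LSU2, and the reason was not examined. Calls over the lists against WT numbered 86, and 194 without a filter and 47 to 174 with a library left out (47 without WT 3, 174 without pie1-5 1). Without pie1-5 1, ELIP1 and ELIP2 of the light list turned from log2 fold changes of 3.65 and 3.97 to -0.10 and -0.80 in pie1-5; over all left-out libraries they ran up to 4.21 and 4.54.

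H3K27me3 calls in pkl-1 were 17, and 1 with TMM over regions; in pie1-5 they were 1, and 0 with TMM. H2A.Z calls were 0, with 3 in pkl-1 under a replicate block and 0 to 88 in pie1-5 with a library left out. Where no cause is stated, the cause was not tested. The replicate block gave 0 in clf-28 and pie1-5 for H2A.Z. Leaving out an H3K27me3 library was not run, since it leaves 1 library against 1. Precision is limited by 3 RNA and 2 ChIP libraries per genotype, by 71 genes under 5 WT CPM and by the second clf-28 H3K27me3 library.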

Other observations

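A further 129 of the 17629 genes at 1 CPM or more in WT met the rule when the first pie1-5 library was left out. In 128 of them that library was not above every WT library. The 129 met the rule only without it, so its low values in them follow from the choice. Of these genes, 13 are in a list, and 7 of the 13 belong to the 10 genes of starch breakdown. With all libraries, edgeR called none of those 10 in pie1-5 against WT. PHS2, the cytosolic glucan phosphorylase, was at 34.8 to 48.3 CPM in WT, 108.7 to 126.1 in pkl-1 and 128.05 to 177.3 in clf-28, and at 13.7, 131 and 194.3 in pie1-5. PRR5, an evening clock repressor, was at 11.4 to 15.5 CPM in WT, 45.8 to 75.8 in pkl-1 and 58.9 to 105.8 in clf-28, and at 1.94, 46.1 and 58.1 in pie1-5. For TOC1 and ELF3 of the evening list too, the first pie1-5 library was below every WT library, at 7.55 and 3.88 CPM, and the other 2 were above it. These genes were named after their values were seen.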
